A study of Mus musculus with 10 samples.

Results

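The platelet-derived growth factor (PDGF) family was followed in mouse ulcer tissue through its 4 ligand genes, Pdgfa, Pdgfb, Pdgfc and Pdgfd, and its 2 receptor genes, Pdgfra and Pdgfrb. These 6 genes were chosen by gene symbol from the 55421 genes of the deposited table, before any filter, and all 6 passed the filter on low counts. All libraries came from ulcers made by surgical excision on db/db mice, which lack a working long form of the leptin receptor and become obese and diabetic. Administration lasted 7 days. In 5 libraries the ulcer had received saline alone, and in the other 5 it had received saline plus Fu Huang ointment. The sources used here give neither age nor sex of the animals, no unwounded or non-diabetic skin was analysed here, and it is not stated that each library came from its own animal. P-values therefore measure the spread between these libraries, which may be partly technical.

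PDGFs are dimers of disulphide-linked chains that bring 2 receptor chains together on the cell surface and switch on their tyrosine kinases. PDGF-A and PDGF-B are cut inside the cell and secreted active. PDGF-C and PDGF-D are secreted with a CUB domain that must be cut off outside the cell before they bind. PDGFR-alpha binds A, B and C chains and is the receptor of dermal fibroblasts and their precursors, while PDGFR-beta binds B and D chains and is found on pericytes, vascular smooth muscle and activated fibroblasts. In wounds, PDGF is known as a product of platelets, macrophages, endothelium and epidermis that draws fibroblasts and mural cells into granulation tissue.

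The deposited totals were 47807353 to 62896034 estimated counts per library. Marker genes of fibroblasts summed to 21477 to 66114 CPM (counts relative to library size, scaled by edgeR's TMM method) and those of keratinocytes to 16220 to 29974 CPM, and no gene of the marker lists was at 0 in every library. The macrophage and hair follicle sums did not overlap between the groups. The macrophage list summed to 3389 to 5918 CPM with saline and 7662 to 10187 CPM with ointment. The hair follicle list summed to 47.7 to 588 CPM with saline and 13.1 to 18.3 CPM with ointment.

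The sequence upstream of the transcription start is shown for the ligand and the receptor with the smallest p-values in the comparison, Pdgfd and Pdgfra, so that the regulatory letters can be read beside their values. Each stretch is the 250 bases before the RefSeq start on GRCm38.p6, printed 5′ to 3′ along the gene, at chr9:6168236-6168485 (plus strand) for Pdgfd and at chr5:75152001-75152250 (plus strand) for Pdgfra. Capitals mark a match to the TATA box motif.
Pdgfd: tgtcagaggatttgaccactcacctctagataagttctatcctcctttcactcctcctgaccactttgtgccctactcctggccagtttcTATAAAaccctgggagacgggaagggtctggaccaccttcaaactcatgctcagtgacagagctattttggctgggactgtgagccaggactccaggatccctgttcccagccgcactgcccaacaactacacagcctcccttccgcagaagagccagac
Pdgfra: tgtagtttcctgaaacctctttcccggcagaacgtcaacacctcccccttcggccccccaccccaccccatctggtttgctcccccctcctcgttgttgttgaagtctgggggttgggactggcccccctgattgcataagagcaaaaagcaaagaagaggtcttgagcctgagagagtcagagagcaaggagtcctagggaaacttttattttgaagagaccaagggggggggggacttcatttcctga
Both strands were searched for the TATA box (TATAAA), the CCAAT box (CCAAT) and the GC box (GGGCGG), and no matches overlapped in these stretches. The Pdgfd stretch held 1 TATA box and the Pdgfra stretch held none of these motifs. Of 32851 RefSeq promoter windows of 250 bases, 12.4% held TATAAA, 33.8% CCAAT and 32.7% GGGCGG. The GC content was 53.6% for Pdgfd and 54.4% for Pdgfra, beside a median of 52.4% over all windows. RefSeq windows were matched for 4 of the 6 genes, with no entry for Pdgfb and Pdgfrb.

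None of the 6 PDGF genes passed the test between ointment and saline ulcers. All 4 ligands had lower estimates with ointment and both receptors had higher ones, where 9314 of all 18509 genes tested had lower and 9195 higher estimates. For Pdgfc the estimate was close to 0, and 14 of its 25 pairs of an ointment and a saline library had the higher value with ointment. The receptor estimates were 1.30-fold (Pdgfra) and 1.37-fold (Pdgfrb) higher, and the ligands ranged from 1.02-fold (Pdgfc) to 1.38-fold (Pdgfd) lower. In tissue RNA, fewer cells of a type and less RNA per cell cannot be told apart. By edgeR's quasi-likelihood test with Benjamini-Hochberg adjustment over 18509 genes, 0 of the 6 had an adjusted p under 0.05, where 1.67% of all genes tested did. At an unadjusted p under 0.05 there was 1, Pdgfra, which was higher with ointment. Of all genes tested 17.1% lay under it in either direction, 8.56% of all genes being lower with ointment and the rest higher. DESeq2, run without the filter on low counts, also called 0 of the 6 (0 at an unadjusted p under 0.05). It called 4.91% of its 30546 genes with a p-value. With limma voom and sample weights 0 of the 6 were called (1.93% of all genes called, 1 of the 6 at an unadjusted p under 0.05). The saline and ointment ranges overlapped in all 6 genes, while they were apart in 6.54% of all genes tested (3.44% lower with ointment). The median log2 fold change of the 6 was -0.13, beside -0.003 over all genes tested.

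**Figure D1:**
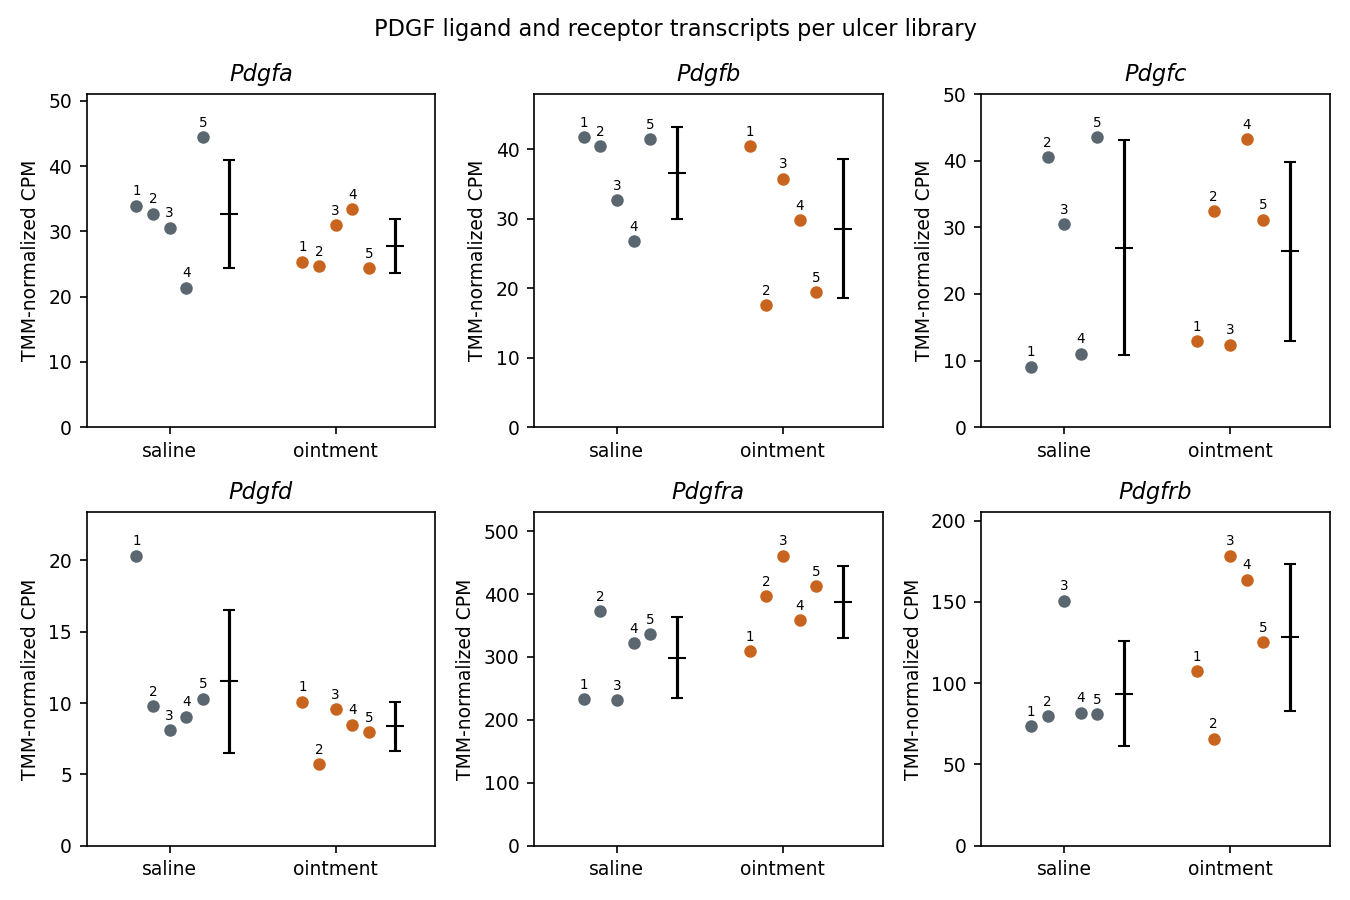
TMM-normalized CPM of each PDGF gene (y axis, from 0) in the 5 saline and 5 ointment libraries, each point labelled with its replicate number; the bars give mean ± SD. The 2 groups overlap in every panel, Pdgfc falls into a low and a high range in both groups, and saline 1 stands above the other saline libraries for Pdgfd, as saline 3 does for Pdgfrb.

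Pdgfa encodes the A chain, which signals through PDGFR-alpha and is made by epidermis and hair follicle epithelium (ENSMUSG00000025856; GRCm38 chromosome 5, 138976014 to 138997370, minus strand). It was 34.0, 32.7, 30.5, 21.4 and 44.5 CPM in saline libraries 1 to 5 and 25.4, 24.7, 30.9, 33.4 and 24.3 CPM in ointment libraries 1 to 5. The saline libraries held both the lowest and the highest value, so that the ointment range lay inside the saline range. The saline mean was 32.6 ± 8.26 CPM and the ointment mean 27.7 ± 4.13 CPM (SD, n = 5 each, as for all means that follow, saline first). The log2 fold change was -0.23 (SE 0.19, 95% confidence interval -0.65 to 0.18, adjusted p = 0.601 by edgeR). The exact two-sided permutation test gave p = 0.325. The fold change was -0.10 without saline 5, the highest library, and -0.36 without saline 4, the lowest. An exon of the antisense gene 6330403L08Rik overlaps an exon of Pdgfa, and the library kit is not stated to keep strand. In the deposited table that antisense gene was at 0 in 6 libraries and at 488 to 626 estimated counts in the other 4 (saline 1, 2 and 4 and ointment 5), and its part in the Pdgfa values was not tested.

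Pdgfb encodes the B chain, which binds both receptors and is the endothelial signal that holds pericytes on vessels (ENSMUSG00000000489; chromosome 15, 79995874 to 80014977, minus strand). It was 41.7, 40.4, 32.6, 26.7 and 41.4 CPM in saline libraries 1 to 5 and 40.4, 17.5, 35.7, 29.7 and 19.4 CPM in ointment libraries 1 to 5. Ointment 2 and ointment 5 lay below every saline library, and the other 3 ointment libraries lay within the saline range. The means were 36.6 ± 6.65 and 28.6 ± 9.99 CPM, a log2 fold change of -0.36 (SE 0.25, 95% confidence interval -0.91 to 0.20, adjusted p = 0.534 by edgeR). The exact two-sided permutation test gave p = 0.175. The estimate was -0.22 without ointment 2 and -0.52 without ointment 1.

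Pdgfc encodes the C chain, a fibroblast and epithelial product that tissue plasminogen activator can activate (ENSMUSG00000028019; chromosome 3, 81036416 to 81214040, plus strand). It was 9.10, 40.6, 30.4, 11 and 43.6 CPM in saline libraries 1 to 5 and 12.9, 32.4, 12.4, 43.2 and 31.1 CPM in ointment libraries 1 to 5. Its values fell into 2 ranges that did not follow the treatment. In 4 libraries, 2 of each group, Pdgfc was at 9.10 to 12.9 CPM, and in the other 6, 3 of each group, it was at 30.4 to 43.6 CPM. The gap between the ranges was 1.24 on the log2 scale, and 4.02% of the 12303 genes with a mean of at least 5 CPM had a gap as large in the middle of their values. The log2 fold change was -0.03 (SE 0.52, 95% confidence interval -1.18 to 1.12, adjusted p = 0.990 by edgeR). The exact two-sided permutation test gave p = 0.810. That interval, the widest of the 6 genes, runs from a 0.441-fold to a 2.18-fold level with ointment. The opposite-strand gene Gm16000 shares exon bases with Pdgfc and had at most 12 estimated counts. Leaving out single libraries gave -0.27 (without ointment 4) to 0.21 (without saline 5).

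Pdgfd encodes the D chain, which signals mainly through PDGFR-beta (ENSMUSG00000032006; chromosome 9, 6168584 to 6378850, plus strand; upstream sequence above). It was 20.3, 9.79, 8.08, 9.05 and 10.3 CPM in saline libraries 1 to 5 and 10.1, 5.72, 9.56, 8.47 and 7.97 CPM in ointment libraries 1 to 5. Saline 1 was the highest library and lay far above the other 4 saline libraries, and ointment 2 and ointment 5 lay below all saline libraries. The means were 11.5 ± 5.01 and 8.36 ± 1.70 CPM. The log2 fold change of -0.46 (SE 0.28, 95% confidence interval -1.08 to 0.15, adjusted p = 0.450 by edgeR) became -0.16 without saline 1. The exact two-sided permutation test gave p = 0.198.

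Pdgfra encodes PDGFR-alpha, the receptor that marks dermal fibroblasts and adipocyte precursors (ENSMUSG00000029231; chromosome 5, 75152292 to 75198215, plus strand; upstream sequence above). It was 232, 373, 231, 321 and 336 CPM in saline libraries 1 to 5 and 309, 397, 461, 358 and 413 CPM in ointment libraries 1 to 5. Ointment 2, 3 and 5 lay above every saline library, no ointment library lay below the saline range, and 21 of the 25 pairs of an ointment and a saline library had the higher value with ointment. The means were 299 ± 64.1 and 388 ± 57.2 CPM, a 1.30-fold higher level (log2 fold change 0.38, SE 0.17, 95% confidence interval 0.002 to 0.75). This difference had the smallest p of the 6 genes, 0.0488 before adjustment, and did not pass after it (adjusted p = 0.288 by edgeR). The exact two-sided permutation test gave p = 0.0635. The estimate stayed between 0.28 and 0.48 in all 10 fits with 1 library left out, none of which gave a call. Overlapping genes that share exon bases with Pdgfra are the opposite-strand genes Gm42802 and Gm42803 and the microRNA gene Mir7025, and no library had more than 20 estimated counts of any of them.

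Pdgfrb encodes PDGFR-beta, the receptor of pericytes and other mural cells (ENSMUSG00000024620; chromosome 18, 61045150 to 61085061, plus strand). It was 73.6, 79.6, 151, 81.7 and 80.9 CPM in saline libraries 1 to 5 and 107, 65.8, 179, 164 and 125 CPM in ointment libraries 1 to 5. Saline 3 was far above the other 4 saline libraries, which lay within 73.6 to 81.7 CPM, and ointment 2 was the lowest library of all. The means were 93.3 ± 32.3 and 128 ± 45.1 CPM, a log2 fold change of 0.46 (SE 0.29, 95% confidence interval -0.19 to 1.11, adjusted p = 0.485 by edgeR). The exact two-sided permutation test gave p = 0.222. The fold change was 0.69 without saline 3 (adjusted p = 0.267) and 0.31 without ointment 3.

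**Figure D2:**
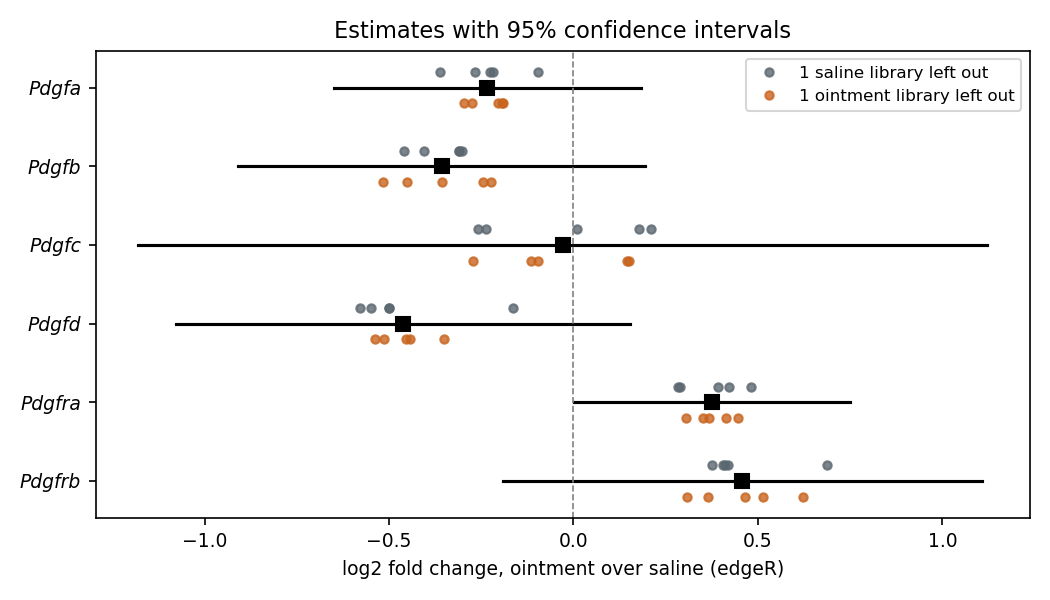
Log2 fold change of ointment over saline by edgeR for the 6 PDGF genes (squares, with 95% confidence intervals as lines). Grey and orange points are the estimates with 1 saline or 1 ointment library left out, and only those of Pdgfc fall on both sides of 0, from -0.27 to 0.21.

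Divided by the length of all annotated exons of a gene, the receptors were more abundant than the ligands. In saline ulcers the order of mean levels was Pdgfra (29.8 ± 6.40 CPM per kb), Pdgfrb (17 ± 5.90), Pdgfa (10.5 ± 2.65), Pdgfb (8.79 ± 1.6), Pdgfc (5.29 ± 3.18) and Pdgfd (3.65 ± 1.59). In ointment ulcers it was the same order, with 38.7 ± 5.71, 23.4 ± 8.23, 8.89 ± 1.33, 6.86 ± 2.40, 5.19 ± 2.63 and 2.65 ± 0.539 CPM per kb. Neighbouring genes in this order had overlapping ranges within a group, except Pdgfrb and Pdgfa with ointment, whose ranges were apart (ratio of means 2.63). Within single libraries, Pdgfra exceeded Pdgfrb in 4 of 5 saline libraries and 5 of 5 ointment libraries. Pdgfrb exceeded Pdgfa in all 10. Pdgfb exceeded Pdgfc in 5 of 5 saline libraries and in 2 of 5 ointment libraries. Exon lengths here take every annotated transcript together, 10.02 kb for Pdgfra and 3.12 to 5.48 kb for the others, so levels of a gene whose ulcer transcript is shorter than that are understated.

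**Figure D3:**
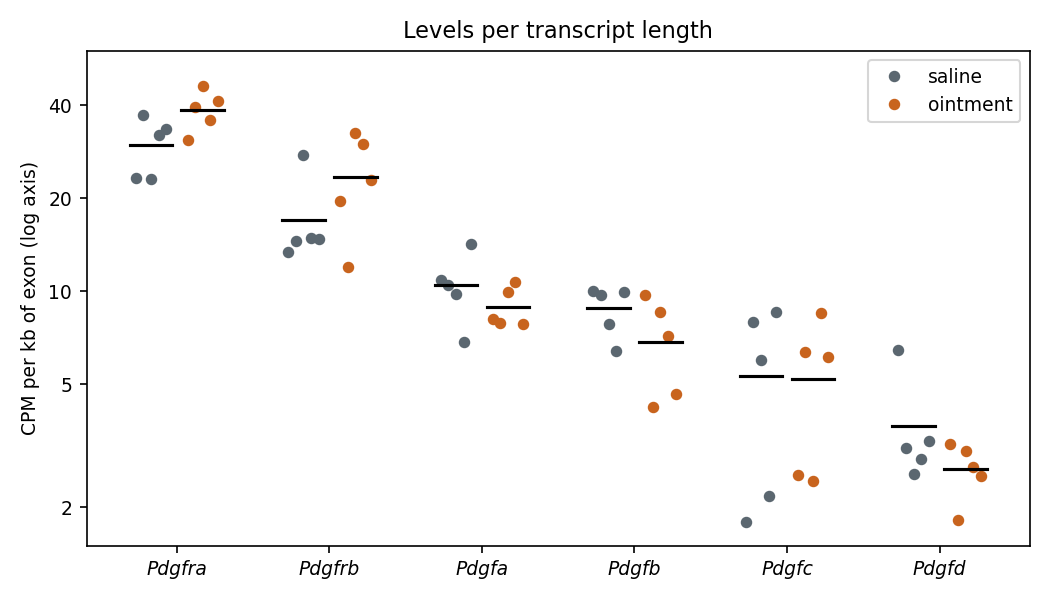
Levels of the 6 PDGF genes in CPM per kb of annotated exon (log axis), with 1 point per library, saline in grey and ointment in orange, and black lines at the means. The receptors Pdgfra and Pdgfrb have the highest means in both groups and Pdgfd the lowest.

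Each receptor, and Pdgfb, was next set against markers of the cell type known to carry it, as a ratio within each library, which library scaling does not affect. Pdgfrb was 7.81, 9.42, 21.2, 11 and 9.40% of the summed CPM of 10 pericyte markers in saline libraries 1 to 5, and 16, 17.8, 41.6, 32.1 and 38.1% in ointment libraries 1 to 5. All ointment libraries lay above 4 of the 5 saline libraries, and saline 3 lay above ointment 1 and ointment 2. The mean log2 ratio was 1.30 higher with ointment, a 2.46-fold difference (exact permutation p = 0.0238, where 0.00794 is the smallest possible; Benjamini-Hochberg adjusted p = 0.119 over 5 ratios), and so did not pass after adjustment. Pdgfrb alone did not pass (above). The pericyte sum was 713 to 943 CPM with saline and 329 to 674 CPM with ointment, without overlap, and 9 of the 10 markers had negative estimates. By edgeR 0 of the 10 passed, and 4 had an unadjusted p under 0.05, all lower (8.56% of all genes tested were lower at that p). DESeq2 called 1 (4.91% of all its genes were called), Notch3, a Notch receptor of mural cells (-1.02, adjusted p = 0.0604 by edgeR). Rgs5, a regulator of G-protein signalling that marks pericytes, made up about as much of the sum as all the others together in the saline libraries (412 ± 40.6 CPM; with ointment it was 159 ± 119.6 CPM, -1.38 on the log2 scale, edgeR's adjusted p = 0.201). With each marker weighted equally the difference in the Pdgfrb ratio was 1.10 on the log2 scale (adjusted p = 0.119). Pdgfrb did not rise with the pericyte list over the 10 libraries (r = -0.38, and -0.03 after removal of the group means, not tested). The ratio therefore cannot be read as a level per pericyte.

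Pdgfra was 0.448, 0.587, 0.427, 0.792 and 0.559% of the summed CPM of 16 fibroblast markers in saline libraries 1 to 5, and 0.468, 1.44, 0.858, 0.758 and 1.92% in ointment libraries 1 to 5. Ointment 2 and ointment 5 held the highest shares, and the groups overlapped. These 2 libraries also had the lowest fibroblast sums, 27500 and 21477 CPM, where the others had 40594 to 66114 CPM. The mean log2 ratio was 0.82 higher with ointment (exact permutation p = 0.0794, adjusted p = 0.198 over 5 ratios). It was 0.58 with each marker weighted equally (adjusted p = 0.198) and 0.57 without ointment 5 (adjusted p = 0.397). Nor did Pdgfra rise with the fibroblast list over the 10 libraries (r = -0.38, and -0.16 after removal of the group means, not tested). This ratio too cannot be read as a level per fibroblast. None of the 16 fibroblast markers passed by edgeR or DESeq2. At an unadjusted edgeR p under 0.05 there were 2, both lower, where 8.56% of all genes tested were lower. Of the 16 markers, 12 had negative estimates, and the median estimate was -0.18. Among them were the matrix proteoglycan gene Dcn (-0.22, adjusted p = 0.284), the fibulin gene Fbln1 (-0.65, adjusted p = 0.266) and the keratan sulphate proteoglycan gene Lum (-0.58, adjusted p = 0.406).

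Pdgfb lay between 2.90 and 4.29% of the summed endothelial markers in all 10 libraries. It was 4.29, 3.12, 3.26, 3.01 and 4% of the summed CPM of 16 endothelial markers in saline libraries 1 to 5, and 3.96, 2.90, 4.10, 3.6 and 3.20% in ointment libraries 1 to 5. The difference in mean log2 ratio was 0.01 (exact permutation p = 0.944; adjusted p = 0.944), although Pdgfb itself ran from 17.5 to 41.7 CPM and the endothelial sum from 606 to 1295 CPM. All 16 endothelial markers had negative estimates (median -0.39). By edgeR 0 passed, and 6 had an unadjusted p under 0.05 (8.56% of all genes tested were lower at that p). DESeq2 called 1 (4.91% of all its genes were called), the adhesion molecule gene Pecam1 (-0.52, adjusted p = 0.0646 by edgeR). Weighted equally, the markers gave a Pdgfb ratio that was 0.27 higher with ointment (adjusted p = 0.198). Following the endothelial list was not particular to it. Over the 10 libraries Pdgfb had an r of 0.91 with the endothelial, 0.94 with the fibroblast and 0.80 with the pericyte list (not tested).

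**Figure D4:**
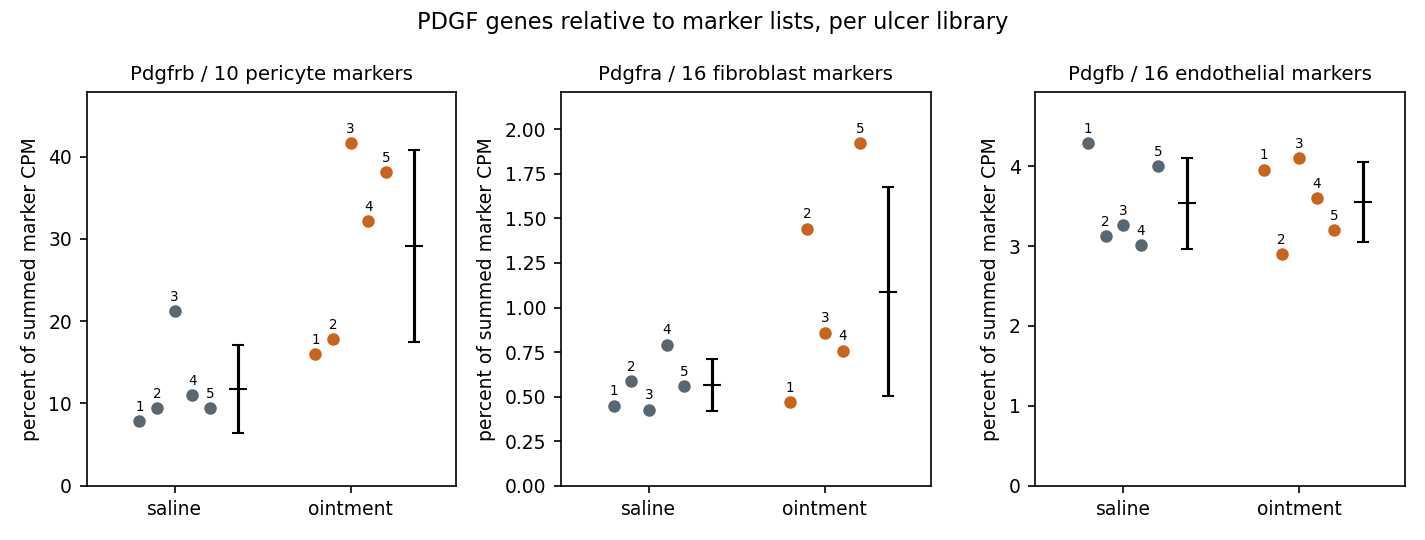
Pdgfrb, Pdgfra and Pdgfb in percent of the summed CPM of pericyte, fibroblast and endothelial markers (y axes, from 0), with 1 numbered point per library and bars at mean ± SD. Of 5 saline libraries, 4 lie below all ointment libraries for Pdgfrb, while for Pdgfb all 10 libraries lie between 2.90 and 4.29%.

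The 2 receptors were also set against each other, as were the 2 classical ligands. The log2 ratio of Pdgfrb to Pdgfra differed by 0.04 between the groups (exact permutation p = 0.929, adjusted p = 0.944), with an SD of 0.64 in the saline and 0.56 in the ointment libraries. That of Pdgfb to Pdgfa differed by -0.20 (p = 0.373 by the exact permutation test, adjusted p = 0.622), with an SD of 0.19 in the saline and 0.47 in the ointment libraries. Leaving out 1 library moved the latter difference to -0.09 (without ointment 2) or -0.38 (without ointment 1), neither of which passed.

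Among the 15 pairs of PDGF genes, Pdgfb and Pdgfd had the most similar rank order across the 10 libraries. Spearman's rho was 0.952 (permutation p = 9.0e-05, adjusted p = 0.00135 over 15 pairs) and Pearson's r of log2 CPM was 0.713 (permutation p = 0.0116, adjusted p = 0.174). Without the 2 libraries farthest from the median of Pdgfb, r was 0.559. Within the groups r was 0.552 in the saline and 0.896 in the ointment libraries (n = 5 each, not tested). After removal of the group means r was 0.633 and rho 0.770, with adjusted permutation p-values of 0.408 and 0.193, so the relation did not pass within groups. No other pair passed by either measure. Pdgfra and Pdgfrb, the 2 receptors, had an r of 0.174 (rho 0.164; permutation p = 0.623 and 0.656, adjusted p = 0.826 and 0.848).

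Genes with the most similar profiles were ranked by Pearson's r of log2 CPM over the 10 libraries among 11878 genes with a mean of at least 5 CPM, leaving out the PDGF genes, mitochondrially encoded genes and those with predicted or clone names. With 10 libraries and this many genes high values arise readily, so they are given as a description. Pdgfb was most like Csrp2 (r = 0.989), Ppic (0.981) and the collagen chain gene Col1a2 (0.967), and 72 genes exceeded r = 0.9 with it. Pdgfra was most like Zfp131 (0.967), the oxysterol hydroxylase gene Cyp7b1 (0.959) and Babam2 (0.940), with 19 genes above 0.9. The other 4 PDGF genes had 1 to 3 such genes each. Pdgfa was most like Samd12 (0.905), Serpina12 (0.904) and Parp16 (0.896), and Pdgfd like the ribosomal protein gene Rpl14 (0.950), Mprip (0.919) and Atxn7l2 (0.913). Pdgfc, with its values in 2 ranges, was most like Psd3 (0.937), Ccnq (0.934) and the proteasome subunit gene Psmd1 (0.872). Pdgfrb was most like Ctc1 (0.911), Ms4a4b (0.896) and Ywhae (0.896).

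The proteases and partners of PDGF gave a mixed picture. Of 18 genes for precursor cleavage, co-receptors and PDGF binding, 0 passed by edgeR, and 12 had positive and 6 negative estimates (median 0.25). At an unadjusted p under 0.05 there were 4, 2 in each direction, where 17.1% of all genes tested lay under it. Over all its genes DESeq2 called 4.91%. Plau, the urokinase that activates PDGF-D, had means of 98.8 ± 8.39 and 142 ± 27.2 CPM (0.52 on the log2 scale with an SE of 0.14; edgeR's adjusted p = 0.0966), and was the 1 gene of the list that DESeq2 called (adjusted p = 0.0268). St14, the membrane protease matriptase, was 38.1 ± 10.3 and 23.4 ± 4.90 CPM (-0.70, adjusted p = 0.133). Furin, which cuts the A and B precursors, was 57.1 ± 18.1 and 117 ± 70.6 CPM (1.03, adjusted p = 0.192).

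Of 30 genes that act on the activated receptors, 0 passed by edgeR, with 16 positive and 14 negative estimates (median 0.06). At an unadjusted p under 0.05 there were 7 (4 higher, 3 lower), beside 17.1% of all genes tested. The adaptor gene Grb2, which links the receptors to Ras, had means of 86.8 ± 8.17 and 122 ± 14.1 CPM, with the groups apart (0.49 on the log2 scale with an SE of 0.11; edgeR's adjusted p = 0.0578, and 0.00477 for DESeq2, its 1 call in the list). On the log2 scale the phosphatase gene Ptpn12 differed by 0.59 (adjusted p = 0.117) and the Src-family kinase gene Yes1 by -0.80 (adjusted p = 0.221).

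Genes that PDGF and serum are classically known to induce in cultured fibroblasts had estimates on both sides of 0. Of 24 tested, 0 passed by edgeR, and 16 had positive and 8 negative estimates (median 0.17). At an unadjusted p under 0.05 there were 5 (3 higher, 2 lower), beside 17.1% of all genes tested. The chemokine genes Cxcl1 (means 4.65 ± 4.49 and 89 ± 132 CPM, 4.26 on the log2 scale, edgeR's adjusted p = 0.0895) and Ccl7 (1.43, adjusted p = 0.148) were the 2 that DESeq2 called. These chemokines are also made by many inflamed cells. The zinc finger gene Egr1 was 122 ± 39.3 and 75.2 ± 17.1 CPM (-0.70, adjusted p = 0.218).

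The closest kinase relatives of the PDGF receptors lie beside them in the genome: Kit is the next coding gene after Pdgfra, and the macrophage receptor gene Csf1r the next after Pdgfrb. Csf1r had means of 343 ± 63.5 and 501 ± 46.3 CPM (0.55 on the log2 scale with an SE of 0.14; edgeR's adjusted p = 0.0816), and Kit 18.1 ± 2.90 and 13.5 ± 1.51 CPM (-0.43, adjusted p = 0.159). Flt3, the receptor of early blood cell precursors, differed by 0.39 (adjusted p = 0.325). Of the 7 such receptors and ligands 0 passed by edgeR, and 2 had an unadjusted p under 0.05 (1 higher, 1 lower), beside 17.1% of all genes tested. DESeq2 called Csf1r, and the median was -0.003.

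Marker lists of cell types that can supply PDGF, or dilute its sources, were compared in the same way. Their part in the values of the 6 PDGF genes was not tested. Over all genes tested, 17.1% had an unadjusted edgeR p under 0.05 (8.56% lower with ointment), and DESeq2 called 4.91% of its genes. Of 16 macrophage markers 3 rose (0.692% of all genes rose), Adgre1 (0.87, adjusted p = 0.00649), Cd68 (0.78, adjusted p = 0.0125) and Trem2 (0.83, adjusted p = 0.0325), and all 16 had positive estimates (median 0.81). Of 7 platelet genes tested 0 passed by edgeR, 4 had an unadjusted p under 0.05 (3 higher, 1 lower) and DESeq2 called 3, all higher. The platelet sum was 108 to 240 CPM with saline (mean 176 CPM) and 234 to 729 CPM with ointment (mean 442 CPM), most of it from Pf4. The platelet chemokine gene Pf4, for which macrophages are also a source, was 156 ± 50.3 and 364 ± 133 CPM (1.22, adjusted p = 0.0778 by edgeR), and Ppbp 6.06 ± 5 and 67.6 ± 71.3 CPM (3.48, adjusted p = 0.0706). Of the 7 platelet genes 4 had positive and 3 negative estimates. Itga2b was lower with the groups apart, at 11.9 ± 1.64 and 8.56 ± 1.29 CPM (-0.48, adjusted p = 0.158 by edgeR). Of 11 neutrophil genes 0 passed by edgeR, 9 had an unadjusted p under 0.05 and DESeq2 called 7, all higher. Of 12 hair follicle genes, whose epithelium is a known source of PDGF-A, 8 fell (0.983% of all genes fell). Of 14 keratinocyte genes 0 passed by edgeR, 4 had an unadjusted p under 0.05 and DESeq2 called 3, all lower, among them Krt1 (-2.03, adjusted p = 0.0564 by edgeR) and Krt10 (-1.80, adjusted p = 0.0778). Of 11 smooth muscle genes Myh11 fell (-0.83, adjusted p = 0.04), and 9 had negative and 2 positive estimates. At an unadjusted edgeR p under 0.05, 3 were lower and 1 higher, Des (251 ± 110 and 491 ± 289 CPM, 0.97, adjusted p = 0.251). The smooth muscle sums were 1536 ± 247 and 1545 ± 558 CPM. Of 9 Schwann cell genes Sox10 fell (-1.45, adjusted p = 0.0401), and of 10 adipocyte genes Lep rose (4.16, adjusted p = 0.0347) and Cfd fell (-2.80, adjusted p = 0.0384). None of 10 skeletal muscle genes passed by edgeR or DESeq2 or had an unadjusted edgeR p under 0.05.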

How the data were processed

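RNA from 10 ulcer libraries was analysed, 5 saline and 5 ointment, placed in groups by the labels. Per the labels' protocols, RNA was column-purified and made into SMARTer libraries. The values the authors deposited are estimated counts per Ensembl gene, whole numbers without normalization; the submitters' processing notes name the build GRCm38 (mm10). Aligner, counter and annotation: not given in the sources used here. Values of 4 and 8 (9202 and 4812 times) outnumbered those of 3 and 5 (4235 and 5804) and of 7 and 9 (2022 and 2955), so a value is not taken to be a number of reads. edgeR had been planned for counts and was kept, with no rounding needed.

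edgeR 4.0.16 (R 4.3.3) fitted group alone (quasi-likelihood, robust, TMM) to 18509 genes that filterByExpr kept (minimum count 10, minimum total 15), with Benjamini-Hochberg adjustment over all of them and a threshold of 0.05. Standard errors are the fold change over the root of F. Exact permutation tests used all 252 assignments of the 10 libraries, and correlations 100000 permutations. Log2 CPM had a prior count of 2. Exon lengths and positions came from GENCODE mouse release 21, promoters from RefSeq. The fit was tested on simulated data, where it called 7% of 100 genes changed 2-fold and 51% of 100 changed 4-fold. Alternatives were other scalings, DESeq2 1.42.0, limma 3.58.1 voom, no filter, no robust estimation, values divided by 4, the replicate number as a block and each library left out. A fit without saline 1 and ointment 5 and equal weighting of markers were added after seeing the data.

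The 6 genes and the lists were chosen with earlier results of these data known. Named list genes are up to 3 per list with the smallest p, and like genes the 3 with the highest r. Itga2b and Des are named besides, because they went against the named genes of their lists.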

Additional observations from a re-analysis of the deposited data

Results flagged for a closer look

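In 5 of 54 groups of 5 libraries (the 6 PDGF genes, the 5 ratios and the 16 list sums, in each treatment) 1 library lay far from the others by Dixon's test, which chance gives in about 5% of groups. Pdgfd in saline 1 was 20.3 CPM, where the next saline library was 10.3 CPM. Pdgfrb in saline 3 was 151 CPM, where the next was 81.7 CPM. The summed keratinocyte markers were 29057 CPM in ointment 2, with 19219 CPM next. The Schwann cell list summed to 181 CPM and the skeletal muscle list to 7314 CPM in ointment 4, where the next ointment libraries had 115 and 2493 CPM.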

How the results depend on the processing

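No call was made for any PDGF gene in the 120 estimates of the 6 genes under alternatives (lowest adjusted p = 0.196), and 6 changed sign, all of Pdgfc. Pdgfc was 0.043 with the replicate number as a block and -0.27 to 0.21 with 1 library left out. Over all genes, the count of 310 called genes of 18509 became 1499 of 30546 with DESeq2, which ran without the filter on low counts. The edgeR count became 59 without saline 1 and ointment 5. With 1 library left out it was 102 (without ointment 3) to 422 (without ointment 4). The cause was not tested. With the replicate number as a block edgeR called 0 (2602 at an unadjusted p under 0.05). The count fell by over 1.5 times without any 1 of saline 1 to 4 or of ointment 1, 2, 3 and 5. Same-numbered libraries correlated at -0.08 to 0.06 in their deviations, and none correlated best with its own number. A single correlation per number cannot show a relation confined to few genes, so whether the numbers pair the samples stays undecided. No ratio changed its call. With 1 library left out, the Pdgfrb to Pdgfra ratio ran from -0.10 to 0.31 and the Pdgfb to endothelial ratio from -0.046 to 0.082, with 5 sign changes each. Depth cannot be given in reads, so no counting error is given.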

Other observations

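Levels per kb of each ligand were also set against its receptor, a pair of ratios chosen after the values were seen and not tested. Pdgfb was 0.747, 0.668, 0.285, 0.431 and 0.673 of Pdgfrb in saline libraries 1 to 5 and 0.495, 0.351, 0.263, 0.239 and 0.204 in ointment libraries 1 to 5. The groups overlapped through saline 3 and saline 4. Pdgfa was 0.470, 0.282, 0.425, 0.214 and 0.425 of Pdgfra in saline libraries 1 to 5 and 0.264, 0.200, 0.216, 0.299 and 0.190 in ointment libraries 1 to 5. Saline 1, 3 and 5 lay above all ointment libraries, and saline 2 and 4 lay among them.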
